A study of Mus musculus with 4 samples.

Results

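Levels of 8 cytokine receptor genes that bear on the upkeep of intraepithelial lymphocytes were followed over 4 microarrays of mouse gut lymphocytes. Intraepithelial lymphocytes (IEL) are lymphocytes, mostly T cells, that sit within the epithelial layer. The genes were Il2rb, Il2rg, Il15ra, Il18r1, Il18rap, Il21r, Il10ra and Il4ra. They form a list of receptor names that was chosen with earlier results of these data known. Each was read from the probe set that lists only its symbol and, where several do, from the brightest of them on average. By that rule 7 of the 8 receptors were among the 22180 genes measured, each with 1 probe set. Il2rg, the common gamma chain, had no such probe set in the platform table used here and was not analysed here.

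There was 1 array for each of 4 groups: colon IEL of recolonized mice, colon IEL of unmanipulated mice, IEL of the small intestine of unmanipulated mice, and T cells of the colon lamina propria. All mice were C57Bl/6 animals of 8 to 10 weeks, and RNA came from pools of 10 mice (5 males and 5 females). The recolonized mice drank water with vancomycin and metronidazole (0.05% each), neomycin and ampicillin (0.01% each) and 1% Koolaid for 7 days and then received used bedding of untreated littermates for 7 days, a step that the labels also describe as co-housing. With no array of mice that had antibiotics and no recolonization, the effects of both steps cannot be told apart. T cells were enriched by magnetic negative selection with an added antibody against EpCAM, an epithelial surface protein; whether arrays shared mice is not stated in the labels.

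The receptors fall into 3 groups by the way they signal. Il2rb, Il15ra, Il21r and Il4ra belong to receptors that use the common gamma chain: Il2rb is the beta chain shared by the receptors of interleukin-2 (IL-2) and IL-15, Il15ra binds IL-15 and presents it to neighbouring cells, Il21r binds IL-21, and Il4ra binds IL-4 and, with Il13ra1, IL-13. Il18r1 and Il18rap are the binding and the accessory chain of the IL-18 receptor, which signals through the adaptor MyD88. Il10ra is the ligand-binding chain of the IL-10 receptor, whose partner is Il10rb. Gamma chain cytokine receptors and the IL-10 receptor signal through JAK kinases and STAT transcription factors. IL-15 presented by epithelial and other cells is known to sustain many IEL in mice, and Il2rb is needed to receive it.

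Among these receptors 2 pairs lie next to each other in the mouse genome (RefSeq, GRCm38.p6). Il18r1 and Il18rap follow each other on chromosome 1 with 14507 bases between them, and Il4ra and Il21r follow each other on chromosome 7 with 23777 bases between them. The neighbour before Il15ra on chromosome 2 is Il2ra, another IL-2 receptor chain, while Il2rb lies at chr15:78479256-78511621 and Il10ra at chr9:45253837-45269149, for which no promoter window was at hand. The promoters of both pairs are shown so that the sequences of neighbours can be read side by side. Each window runs from 250 bases before to 50 bases after a RefSeq start, and 6 of the 8 receptors had such windows, 9 in all. Capitals mark matches, on either strand, to 6 motifs. The motif searched for STAT factors was TTCNNNGAA, and that for RUNX factors, which are active in T cells, was TGTGGT. The ETS family of transcription factors was represented by the letters CGGAAG and the T-box family, to which T-bet belongs, by AGGTGTG. For the GATA family of zinc finger factors the search used AGATAA, and for AP-1, the dimers of Jun and Fos proteins, it used TGANTCA.
Il4ra, chr7:125552021-125552320, plus strand: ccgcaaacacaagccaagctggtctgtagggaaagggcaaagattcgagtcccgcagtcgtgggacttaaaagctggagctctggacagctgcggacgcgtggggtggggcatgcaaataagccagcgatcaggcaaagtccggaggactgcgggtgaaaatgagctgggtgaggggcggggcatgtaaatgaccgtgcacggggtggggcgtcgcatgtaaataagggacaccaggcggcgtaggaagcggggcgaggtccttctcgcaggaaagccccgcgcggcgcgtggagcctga
Il21r, chr7:125603179-125603478, plus strand: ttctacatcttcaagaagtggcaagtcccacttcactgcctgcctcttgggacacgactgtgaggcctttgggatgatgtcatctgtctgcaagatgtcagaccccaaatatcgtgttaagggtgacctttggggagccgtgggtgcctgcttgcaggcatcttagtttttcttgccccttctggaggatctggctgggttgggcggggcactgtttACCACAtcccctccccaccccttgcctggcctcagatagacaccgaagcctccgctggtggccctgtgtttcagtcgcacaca
Il18r1, chr1:40465756-40466055, plus strand: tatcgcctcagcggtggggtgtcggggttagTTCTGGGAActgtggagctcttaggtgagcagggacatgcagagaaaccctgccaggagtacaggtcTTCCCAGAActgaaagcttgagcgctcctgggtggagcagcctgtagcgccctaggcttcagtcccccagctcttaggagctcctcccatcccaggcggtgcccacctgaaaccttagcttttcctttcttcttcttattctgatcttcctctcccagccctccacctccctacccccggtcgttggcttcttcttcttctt
Il18rap, chr1:40515112-40515411, plus strand: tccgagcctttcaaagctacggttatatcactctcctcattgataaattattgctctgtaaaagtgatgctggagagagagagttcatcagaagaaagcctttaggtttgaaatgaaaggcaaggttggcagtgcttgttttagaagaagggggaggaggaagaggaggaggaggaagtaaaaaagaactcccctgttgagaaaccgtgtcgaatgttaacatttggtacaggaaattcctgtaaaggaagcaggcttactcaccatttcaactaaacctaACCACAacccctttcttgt

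The Il4ra window held none of the 6 motifs and was the richest of the 9 windows in CpG, with 25 CpG dinucleotides and a GC content of 62.0%, against medians of 7 and 52.7% over 32851 mouse windows. The Il21r window held a RUNX match, which 16.8% of all windows do, and had 7 CpG dinucleotides. Il18r1 has 3 RefSeq starts. The window of the third, printed above, held 2 matches to the STAT motif, which begin at positions −219 and −152 from the start; at least 1 such match is in 8.3% of all windows. The window of the first start held no match and that of the second a RUNX match. The Il18rap window held 1 RUNX match. No printed match overlapped another. A match describes the letters of the window only.

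The deposited values are log2 levels per probe set. Since every group is a single array, no difference could be tested or checked in a replicate, and all differences below are subtractions of one log2 level from another. Counts take in the genes that reach the median gene level on whichever array of the pair is brighter (the level floor), and call a gene higher or lower from 2-fold on. The only measures of spread at hand lie within a pair of arrays: the SD of the differences was 0.34 to 0.59 over 63 cytosolic ribosomal protein genes and 0.73 to 1.41 between both probe sets of the 968 genes that have exactly 2. The median gene level was 2.39 on the recolonized colon IEL array, 2.41 on the colon IEL array, 2.24 in small intestinal IEL and 2.18 on the array labelled LP, for lamina propria.

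The array labelled LP, called the LP-labelled array here, did not hold what its label says. All 10 measured genes of a T cell list (Cd3d, Cd3e, Cd3g, Cd2, Cd5, Lat, Zap70, Thy1, Ptprc and Ptprcap) were lower there than on each IEL array: their median level was 6.57, 5.57 and 5.42 on the recolonized colon, colon and small intestinal IEL arrays and 2.41 on the LP-labelled array. The 12 pan-epithelial markers had median levels of 5.01, 4.27 and 5.53 on the 3 IEL arrays in the same order, and 8.01 on the LP-labelled array. Results that rest on this array are given apart from those on the 3 IEL arrays. In bulk RNA, fewer cells of a type and less RNA per cell cannot be told apart.

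Il2rb, the IL-2 and IL-15 receptor beta chain, was at 7.32 on the recolonized colon IEL array, 7.36 on the colon IEL array, 7.67 in small intestinal IEL and 2.89 on the LP-labelled array. The 3 IEL arrays were close together and the fourth stood far below them. The IEL arrays spanned 0.35, and 91.0% of the 927 genes with levels of at least 5 on all 3 spanned more. Under quantile normalization of the arrays the same span was 0.63, with colon IEL highest at 7.89 and small intestinal IEL lowest at 7.26, so the order of the IEL arrays depends on the scaling.

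Il21r, the IL-21 receptor, was at 6.13 on the recolonized colon IEL array, 5.64 on the colon IEL array, 5.74 in small intestinal IEL and 2.97 on the LP-labelled array. As with Il2rb, the IEL arrays lay together and the LP-labelled array apart. The IEL arrays spanned 0.49, but 1.13 under quantile normalization, where the small intestinal IEL array was lowest at 5.34. Il4ra, the IL-4 receptor alpha chain, was at 5.19, 5.10 and 5.28 on the recolonized colon, colon and small intestinal IEL arrays and at 4.15 on the LP-labelled array. Its span over the IEL arrays was 0.18, where 97.5% of the 927 genes spanned more, and 0.88 under quantile normalization.

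Il15ra, the IL-15 receptor alpha chain, was at 2.56, 2.71 and 2.74 on the recolonized colon, colon and small intestinal IEL arrays and at 2.36 on the LP-labelled array. All 4 values lay at most 0.50 above the median gene of their array, so its span of 0.37 may be set by the low end of the scale. Il18rap, the accessory chain of the IL-18 receptor, was at 2.48, 2.34 and 2.19 on the 3 IEL arrays in the same order and at 1.72 on the LP-labelled array. It reached the median gene on the recolonized array only, and its differences are given with no order drawn from them.

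Il18r1, the binding chain of the IL-18 receptor, was at 3.84 on the recolonized colon IEL array, 2.84 on the colon IEL array, 2.23 in small intestinal IEL and 1.95 on the LP-labelled array. It was highest after recolonization and lay below the median gene on both the LP-labelled and the small intestinal IEL array. Il10ra, the IL-10 receptor alpha chain, was at 2.95, 3.09 and 3.89 on the recolonized colon, colon and small intestinal IEL arrays and at 2.19 on the LP-labelled array. Both colon IEL arrays were thus below the small intestinal one, and the lowest value was at the median gene of its array.

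**Figure D1:**
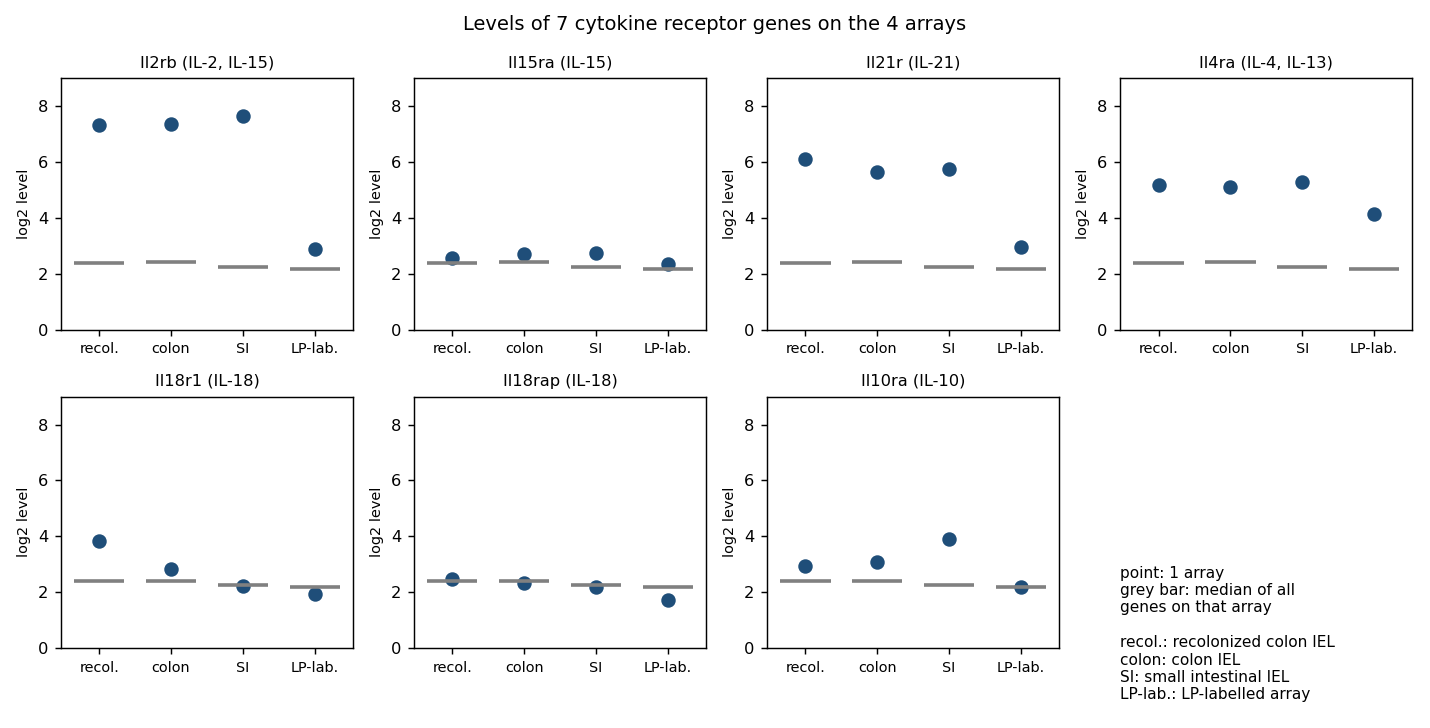
Log2 level (vertical axis) of each of the 7 measured receptor genes on the 4 arrays (horizontal axis, 1 point per array), with the median of all genes on each array as a grey bar. Il2rb and Il21r sit between 5.64 and 7.67 on the 3 IEL arrays and under 3 on the LP-labelled array, Il18r1 is highest on the recolonized array at 3.84, and Il15ra and Il18rap stay near the grey bars.

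The question of whether IEL of the colon and of the small intestine carry the same receptors was taken up first. None of the 6 receptors above the level floor differed by 2-fold. Il18r1 was 1.52-fold higher in colon IEL, a difference of 0.61, and Il10ra was 1.73-fold lower, a difference of −0.79. Il2rb, Il21r, Il4ra and Il15ra differed by −0.30, −0.10, −0.18 and −0.03, and Il18rap, under the floor, by 0.15. Among all genes that passed the floor, 5.98% were higher by 2-fold in colon IEL and 24.4% were lower; the median gene differed by −0.30, and the receptors had a median of −0.10. The directions for Il18r1 and Il10ra were the same under quantile normalization, centring and lowess correction (0.43 to 0.91 and −0.79 to −0.39). Those of Il2rb, Il21r, Il4ra, Il15ra and Il18rap turned under at least 1 of these.

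The recolonized array was then set against unmanipulated colon IEL, the comparison that follows antibiotics and recolonization. Il18r1 was the 1 of 7 receptors at 2-fold, at 3.84 against 2.84, a difference of 1.01 or 2.01-fold, which is at the edge of the threshold. Among all genes that passed the floor, 6.04% were higher by 2-fold on the recolonized array and 3.06% lower, so a count of 1 among 7 says little about the receptors. Il21r differed by 0.49, Il18rap by 0.14, Il4ra by 0.09, Il2rb by −0.04, Il10ra by −0.14 and Il15ra by −0.15. The median of all genes above the floor was 0.13, and relative to it the Il18r1 difference was 0.88. The Il18r1 difference was 1.24 under quantile normalization and 0.89 under lowess correction. The T cell list was also higher on the recolonized array, by a median of 0.67 (range 0.16 to 1.54 over its 10 genes). Relative to the T cell list Il18r1 was higher by 0.34, while Il2rb, Il10ra and Il15ra were at −0.71, −0.81 and −0.82.

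Recolonized colon IEL was also set against small intestinal IEL. This comparison shares its arrays with the comparisons above. Il18r1 was 3.06-fold higher on the recolonized array, a difference of 1.61, and 0.864% of all genes above the floor had a larger positive difference. It kept this direction under each scaling tried, with 1.61 to 1.83, and was higher by 1.07 relative to the T cell list. It was the 1 receptor past 2-fold of 7 above the floor, where 4.76% of all genes were higher and 17.9% lower. Il10ra was lower by 1.91-fold, a difference of −0.94, and the other receptors lay between −0.35 and 0.39.

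Colon IEL and small intestinal IEL were each set against the LP-labelled array, which separates IEL from an array with few T cell and many epithelial transcripts. All 7 receptors had a positive difference in both. Il2rb was higher by 4.48 in colon IEL and by 4.78 in small intestinal IEL, and Il21r by 2.67 and 2.77. At 2-fold, 2 of 6 receptors above the floor were higher in colon IEL, where 10.5% of all genes were higher and 34.7% lower, and 4 of 5 in small intestinal IEL, where 8.76% of all genes were higher and 15.7% lower. As deposited, the 2 further receptors of the small intestine were Il10ra, with 1.70, and Il4ra, with 1.13. In colon IEL they differed by 0.90 and 0.95. Under quantile normalization and lowess correction Il4ra also passed 2-fold in colon IEL, at 2.03 and 2.22. Its small intestinal IEL differences were then 1.14 and 1.44. The colon IEL count was 3 under both, where 1981 of 12880 and 1864 of 12788 genes were higher. Both comparisons share the LP-labelled array.

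The T cell list was used as a yardstick for these differences. It was higher by a median of 3.26 in colon IEL and 2.99 in small intestinal IEL than on the LP-labelled array. Its genes ranged widely, from 2.03 to 5.62 in colon IEL and from 1.36 to 6.64 in small intestinal IEL. Relative to that list Il2rb was higher by 1.22 in colon IEL and 1.79 in small intestinal IEL, and Il21r was at −0.58 and −0.21. Il4ra was at −2.31 and −1.86 and Il10ra at −2.35 and −1.29. With the median of the 3 CD3 chains in place of the list, a choice made after seeing the data, Il2rb was at −0.94 and −0.98. Several T cell genes were near the median gene on the LP-labelled array, and the floor of the array scale may bound all of these sizes.

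**Figure D2:**
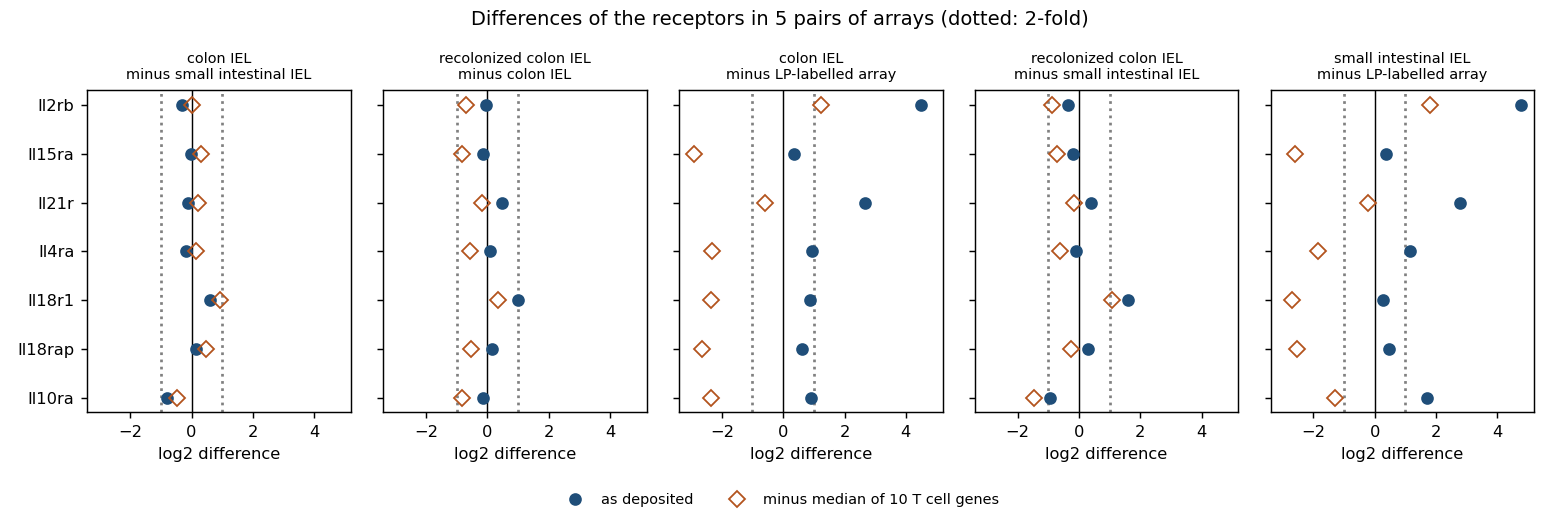
Log2 difference (horizontal axis) of each receptor (vertical axis) in 5 pairs of arrays, as deposited (filled circles) and after subtracting the median difference of the 10 T cell genes (open diamonds); dotted lines mark 2-fold. Among IEL arrays only Il18r1 passes the line as deposited, with 1.01 and 1.61, and against the LP-labelled array Il2rb lies farthest to the right, with 4.48 and 4.78.

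The pattern over the arrays was set beside those of all other genes. For each receptor that spanned at least 2-fold, the 3 genes with the smallest root mean square distance between centred log2 levels were taken from 12544 named genes that reach the median on at least 1 array. For Il2rb these were Cd52, Lcp2 and Slfn2, with distances of 0.19, 0.19 and 0.22 over 4 arrays. For Il21r they were Arhgdib, Itgal and Myo1g, with 0.06, 0.11 and 0.11. The T cell list median lay at 0.37 from Il21r and at 0.73 from Il2rb. For Il4ra they were Dpy19l1, Marcksl1 and Unkl, with 0.04, 0.04 and 0.05, and the T cell list was at 1.13. The neighbours Il4ra and Il21r therefore differed in their distance to the T cell list: on the LP-labelled array Il21r was 2.67 below the colon IEL array and Il4ra 0.95 below it.

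For Il10ra the nearest genes were Prkacb, H2-DMa and G6pc, with distances of 0.08, 0.09 and 0.09. H2-DMa, a chaperone of MHC class II loading, was at 3.84, 4.01 and 4.70 on the recolonized colon, colon and small intestinal IEL arrays and at 3.24 on the LP-labelled array, the same order as Il10ra. B cells and myeloid cells also carry the IL-10 receptor. The 8 measured B cell markers had median levels of 2.63, 3.17 and 6.10 on the 3 IEL arrays and 1.99 on the LP-labelled array, and the sum of their linear levels was 48.5, 129, 599 and 33.5 in the same order. Of these markers 5, 7 and 8 reached the median gene on the IEL arrays and 3 on the LP-labelled array. The 11 measured myeloid markers had medians of 2.32, 2.75 and 3.03 on the IEL arrays and 1.96 on the LP-labelled array, with summed linear levels of 107, 146, 209 and 55.8. Both lists were highest where Il10ra was highest as deposited. The median myeloid difference between colon and small intestinal IEL was −0.24 as deposited but 0.06 after centring on the median gene. That of the B cell list stayed negative under each scaling. The part of both lists in the Il10ra level was not tested.

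For Il18r1 the nearest genes were Cypt1, Abhd8 and Pdgfra, with distances of 0.05, 0.06 and 0.08; over the 3 IEL arrays alone, a choice made after seeing the data, they were Ushbp1, Rab3d and Mcidas, with 0.01, 0.03 and 0.03, so none of the 3 genes was shared. Its distance to the T cell list was 1.07 over 4 arrays and 0.22 over the IEL arrays. The IL-18 receptor is also carried by natural killer (NK) cells and other innate lymphocytes. Of the 5 measured markers of these cells, Klrg1 was at 3.45 on the recolonized array, against 2.01 on the colon IEL array, Ncr1 at 3.76 against 2.24 and Gata3, which T cells also express, at 4.29 against 3.82. Fcgr3 was lower, at 2.44 against 3.51, and Klrb1c lay under the median gene on every array, at 1.73 and 1.59 on these 2. The summed linear levels of the 5 markers were 52.8, 37.3 and 23.7 on the recolonized colon, colon and small intestinal IEL arrays. With 16.4 on the LP-labelled array, the sums had the same order as Il18r1. The list medians, 3.45, 2.24, 2.28 and 1.81 in that array order, did not, since colon IEL lay just below small intestinal IEL. The part of these cells in the Il18r1 level was not tested.

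Pdgfra is a marker of the stromal list, whose genes did not all differ the way Il18r1 did. Of its 9 genes, 8 were above the floor in recolonized against unmanipulated colon IEL. Of these, 3 were at least 2-fold higher on the recolonized array and 3 lower, where 6.04% and 3.06% of all genes were. Among them were Dcn at 9.03 against 7.96 and Col1a1 at 6.31 against 7.59. The summed linear levels of the stromal list were 761, 658 and 177 on the recolonized colon, colon and small intestinal IEL arrays. On the LP-labelled array the sum was 61.4. The medians of the list were 4.28, 5.39, 2.99 and 2.49 in the same array order, so colon IEL was highest by the median.

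**Figure D3:**
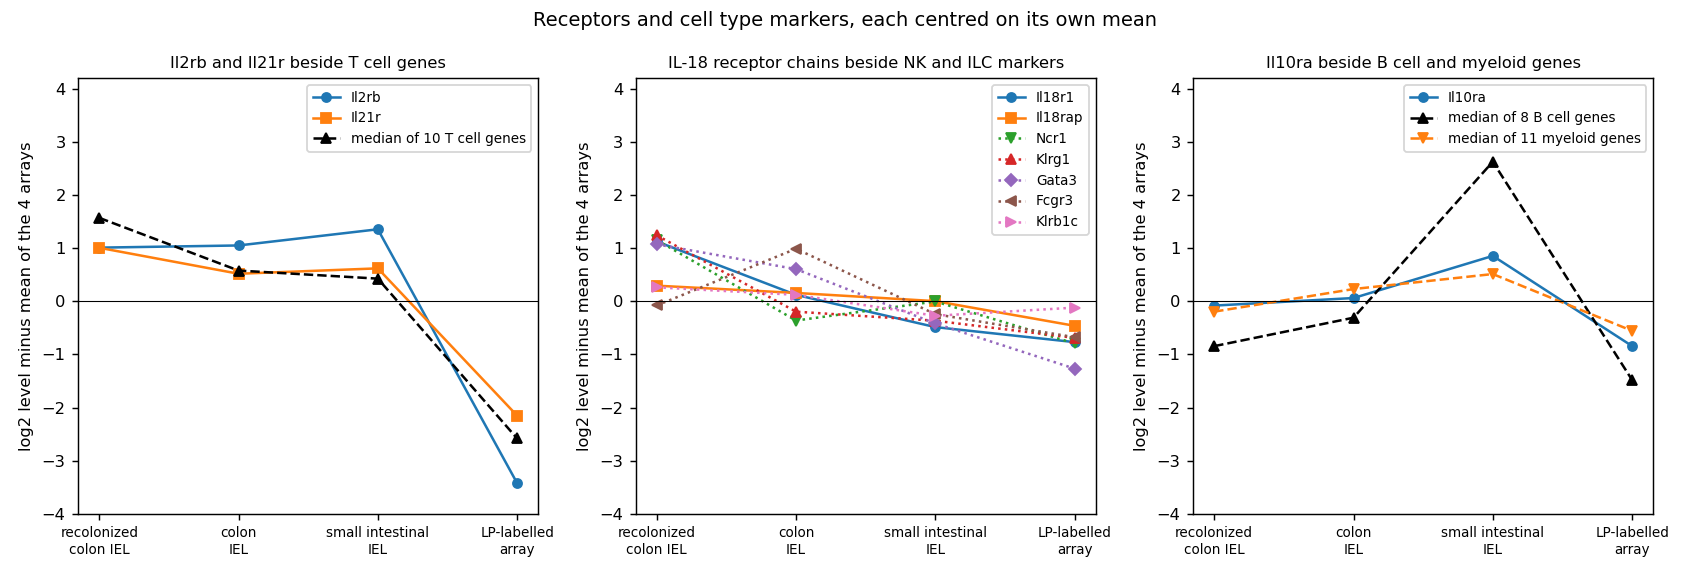
Log2 level minus the gene's or list's own mean over the 4 arrays (vertical axis) for each array (horizontal axis), with receptors as solid lines and marker genes or list medians as broken lines. Il2rb, Il21r and the T cell median are lowest on the LP-labelled array, Il18r1 peaks on the recolonized array as Klrg1 and Ncr1 do, and Il10ra peaks on the small intestinal IEL array, where the B cell median is 6.10.

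Il15, the ligand received through Il15ra and Il2rb, was at 2.08, 2.28 and 2.91 on the recolonized colon, colon and small intestinal IEL arrays and at 5.35 on the LP-labelled array. Il18, a cytokine that gut epithelium stores, was at 2.99, 2.88 and 6.61 in the same IEL order, against 7.32 on the LP-labelled array. Both were highest on the array richest in epithelial transcripts, where all 7 receptors were lowest. Between colon and small intestinal IEL the difference was −3.73 for Il18 and −0.63 for Il15. The 10 ligand genes also include Il2, Il4, Il7, Il9, Il10, Il13, Il21 and the IL-18 binding protein Il18bp. Of the 10, 3 were above the floor in colon against small intestinal IEL. By 2-fold 1 was lower and 0 higher, where 24.4% and 5.98% of all genes were. Il13 and Il18bp did not follow Il15 and Il18. Il13 was at 2.47 on the recolonized array and at 1.88, 1.80 and 1.70 on the colon IEL, small intestinal IEL and LP-labelled arrays, and Il18bp at 3.25, 3.26, 2.98 and 2.98 in that order. The transcripts of Il2, Il4, Il7, Il9, Il10 and Il21 did not reach the median gene on any array. The pan-epithelial median is given above; the part of epithelial cells in the ligand levels was not tested.

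A partner chain of 2 of the receptors and an adaptor are described next, chosen after their values were seen. Il13ra1, the partner of Il4ra in the IL-13 receptor, was at 3.19, 2.58 and 6.18 on the recolonized colon, colon and small intestinal IEL arrays and at 7.08 on the LP-labelled array. Il10rb, the partner of Il10ra, was at 5.76, 5.01 and 6.28 on the 3 IEL arrays in that order, against 6.73 on the LP-labelled array. Myd88, the adaptor of the IL-18 receptor, was at 4.21, 4.01 and 6.01 in the same IEL order, against 5.70 on the LP-labelled array. The LP-labelled array was thus highest for both partner chains and the small intestinal IEL array for Myd88. Other chains had other orders: Il2ra was lowest on the LP-labelled array, at 2.02, with 3.19 in recolonized colon IEL, 2.55 in colon IEL and 2.66 in small intestinal IEL. Il10ra and Il10rb therefore differed in opposite directions in small intestinal IEL against the LP-labelled array, by 1.70 and −0.45.

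**Figure D4:**
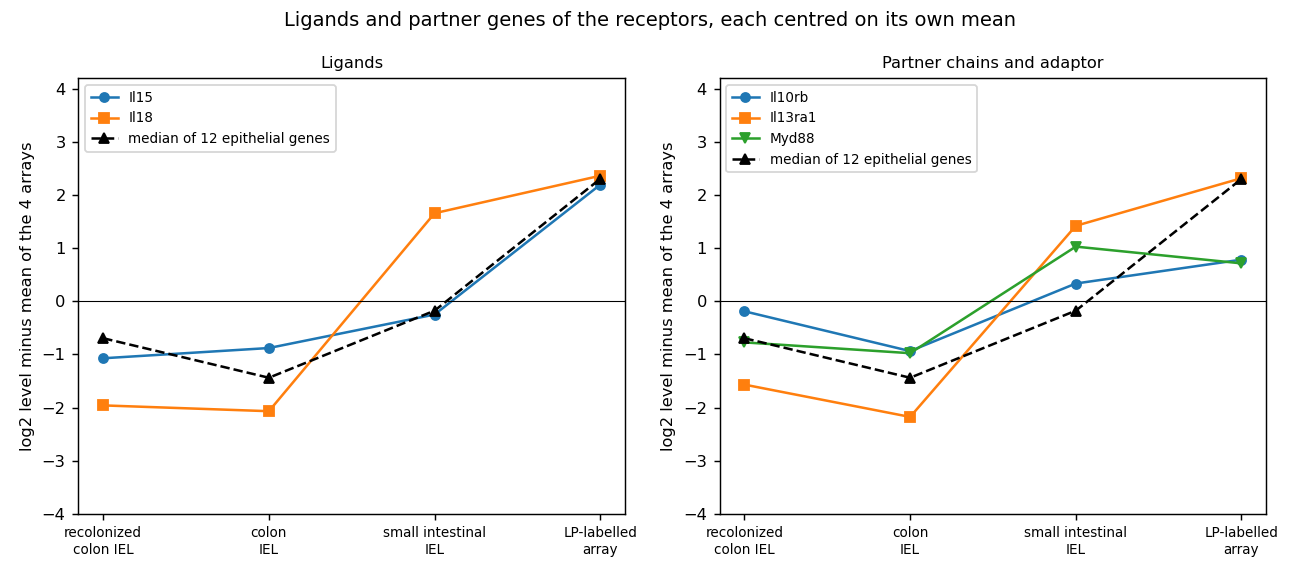
Log2 level minus the gene's own mean over the 4 arrays (vertical axis) for each array (horizontal axis), for the ligands Il15 and Il18 (left) and for Il10rb, Il13ra1 and Myd88 (right), with the median of 12 epithelial markers as a broken line. Il15 and Il18 are highest on the LP-labelled array, at 5.35 and 7.32, and Myd88 is highest on the small intestinal IEL array, at 6.01.

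Of 18 other receptor chains measured, 2 were at least 2-fold higher and 6 lower in colon than in small intestinal IEL among 17 above the floor, where 5.98% and 24.4% of all genes were. Under quantile normalization and under lowess correction 5 were higher and 4 lower, where 11.4% and 13.7% of all genes were under the first and 8.68% and 13.2% under the second. The higher ones were Il7r, the IL-7 receptor alpha chain, at 7.71 against 6.44, and Il6ra, which binds IL-6, at 5.76 against 3.43. The lower ones were Il13ra1, Il22ra1 at 2.49 against 5.77, Ifngr2 at 4.61 against 6.99, Il10rb, Il12rb2 at 3.37 against 4.60 and Tgfbr1 at 2.11 against 3.29. Il10rb and Il12rb2 lay within 2-fold under both scalings, at −0.14 and −0.68 under quantile normalization, while Crlf2, Ifngr1 and Tgfbr2 passed it as higher, at 1.34, 1.21 and 1.11. Il22ra1, a chain of the IL-22 receptor of epithelial cells, was at 5.90 on the LP-labelled array, a difference from small intestinal IEL that turned under each other scaling, and Ifngr2 and Il13ra1 were highest there, Ifngr2 at 7.59. Between recolonized and unmanipulated colon IEL, 2 of 16 chains above the floor were higher and 0 lower, where 6.04% and 3.06% of all genes were. These were Il6st, the gp130 chain shared by IL-6 family receptors, at 6.93 against 5.65, and Il17ra, an IL-17 receptor chain, at 6.02 against 4.71. Both differences were under 2-fold with quantile normalization, at 0.91 for Il6st and 0.97 for Il17ra, and with lowess correction, at 0.80 and 0.91. The count was then 1 higher (Il22ra1, 1.22) and 0 lower under quantile normalization, where 6.56% and 6.15% of all genes were, and 0 and 0 under lowess correction, where 3.51% and 4.02% were. Il2ra, the IL-2 receptor alpha chain, was at 3.19 against 2.55 in that comparison.

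Downstream of the receptors, Jak3, the kinase that pairs with the common gamma chain, lacked a probe set of its own in the platform table and was not analysed here. Of the 3 JAK kinases measured, Jak2 was lower in colon than in small intestinal IEL, at 5.48 against 7.53, and Jak1 and Tyk2 were within 2-fold. By 2-fold, 24.4% of all genes were lower in this pair. The Jak2 difference was −2.05 as deposited, −1.06 under lowess correction and −0.91, within 2-fold, under quantile normalization. Of 6 STAT factors, 3 were at least 2-fold lower and 0 higher in colon IEL, where 24.4% and 5.98% of all genes were: Stat2 at 3.44 against 5.35, Stat3 at 5.49 against 7.28 and Stat4, which acts below the IL-12 receptor, at 5.66 against 6.96. Under quantile normalization and lowess correction 1 of the 3 remained, Stat2 at −1.24 and −1.11, where 13.7% and 13.2% of all genes were lower. Stat3 was then at −0.67 and −0.79 and Stat4 at −0.18 and −0.30. Stat5a and Stat5b, which act below IL-2 and IL-15, differed by −0.84 and 0.02, and Stat6, which acts below IL-4, by −0.56. No JAK or STAT gene differed by 2-fold between recolonized and unmanipulated colon IEL, where 6.04% of all genes were higher and 3.06% lower. On the LP-labelled array Jak2, Stat2, Stat3 and Stat4 were at 6.43, 3.84, 6.52 and 2.26. The part of epithelial and B cells in the JAK and STAT levels was not tested.

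Genes that these cytokines are known to induce, or that act in survival, were counted in the same way. Of 9 such genes, 8 were above the floor in colon against small intestinal IEL, with 1 higher and 0 lower, where 5.98% and 24.4% of all genes were. With quantile normalization 4 were higher, where 11.4% of all genes were: Bcl2l1 at 2.18, Bcl2 at 1.48, Myc at 1.24 and Pim2 at 1.03. With lowess correction 3 of these were higher, all but Pim2, where 8.68% of all genes were. The 1 higher gene as deposited was Bcl2l1, an inhibitor of apoptosis that red cell precursors also use, at 4.76 against 3.37. On the recolonized array Bcl2l1 was at 2.99, a difference of −1.77 from the colon IEL array; the red cell gene Slc4a1 was at 2.32 on the recolonized array and 7.93 on the colon IEL array, and its part was not tested. Myc, a growth regulator, was higher on the recolonized array, at 5.44 against 4.29, a difference of 1.15 that was 0.90 under quantile normalization and 0.80 under lowess correction, within 2-fold. Bcl2, a survival factor downstream of gamma chain cytokines, was at 7.82, 7.69 and 7.07 on the recolonized colon, colon and small intestinal IEL arrays and at 4.24 on the LP-labelled array. Among the induced inhibitors Cish, Socs1, Socs2 and Socs3, Socs3 was at least 2-fold lower in colon than in small intestinal IEL, at 3.28 against 4.29. In this pair 24.4% of all genes were lower by 2-fold. Under quantile normalization Socs3 was within 2-fold, at −0.53. Socs1 was at 3.44 against 2.51, a difference of 0.94 that passed 2-fold under quantile normalization, at 1.23, where 11.4% of all genes were higher. None of the 4 differed by 2-fold between recolonized and unmanipulated colon IEL, where 6.04% of all genes were higher and 3.06% lower.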

How the data were processed

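RNA of 4 samples was hybridised to whole-transcript Affymetrix mouse arrays. The deposited values are log2 levels, and the submitters' processing notes name Affymetrix Expression Console; how it summarized and normalized the arrays is not given in the sources used here. Of 41345 probe sets, 23521 listed 1 gene symbol, 1814 several and 16010 none in the platform table. Gene IDs of 23328 matched RefSeq, and 0 symbols changed.

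Differences of log2 levels were computed in Python 3.11.15 with pandas 2.3.3; the lowess correction (span 0.3) used statsmodels 0.14.6. The level floor was the 50th percentile of genes on the brighter array, and the threshold 2-fold. Alternatives were other floors and thresholds, probe set means, quantile normalization, centring on the median gene or on T cell genes. Counting steps were tested on simulated data with noise of SD 0.3 per array and planted log2 differences of 1.5 and 3. Only the recovery of planted genes was checked, so the simulation does not bear on false calls or on differences near 2-fold. The number of arrays limits the precision. Receptors, gene lists and the rule for named genes (receptors, list members past 2-fold, the 3 most alike genes) were chosen with earlier results of these data known; list members named within 2-fold were chosen after their values were seen. Of 57 pathway genes 53 were measured.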

Additional observations from a re-analysis of the deposited data

How the results depend on the processing

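No paired analysis was possible because each group is 1 array, and no array could be left out of a group. Counts of receptors past 2-fold were the same with the floor at the 25th or 75th percentile, with no floor and with probe set means. At 1.5-fold, 1 receptor was higher and 1 lower in colon against small intestinal IEL, against 0 and 0 at 2-fold. Also at 1.5-fold, 5 were higher in colon IEL against the LP-labelled array, against 2. In recolonized against small intestinal IEL 1 was lower, against 0. The share of all genes past 1.5-fold or 3-fold was not computed, so receptor counts at these thresholds have no background beside them. At 3-fold, 0 were higher in recolonized against unmanipulated colon IEL, against 1. At 2-fold, the count for that pair stayed at 1 under quantile normalization, with Il18r1 at 1.24, where 6.56% of all genes were higher. It was 0 after centring on the median gene and the lowess correction, which put Il18r1 at 0.88 and 0.89. It was 0 as well after T cell and CD3 chain centring, which subtract the T cell difference and put Il18r1 at 0.34 and 0.26. Against the LP-labelled array, centring on the median gene gave 5 higher receptors in colon IEL, where 2847 of 12788 genes were higher. Quantile normalization and lowess correction gave 3, against 2 as deposited, where 1981 of 12880 and 1864 of 12788 genes were. Quantile normalization also gave 2 higher in recolonized against small intestinal IEL, against 1, where 1076 of 12451 genes were higher. Quantile normalization moved the receptors' median in colon against small intestinal IEL to 0.59, against −0.10; the cause was not tested.

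Centring on T cell genes moved results by its own construction, since it subtracts the T cell difference. What share of all genes passed 2-fold after this centring was not computed, so its receptor counts have no background beside them. With the T cell list, the receptors' medians were −0.58 in recolonized against unmanipulated colon IEL, −0.63 in recolonized against small intestinal IEL, where 1 receptor was then lower, −2.35 in colon IEL against the LP-labelled array, with 1 higher and 4 lower, and −1.86 in small intestinal IEL against that array, with 1 higher and 3 lower. With the CD3 chains, chosen after seeing the data, the medians were −0.65, −4.51 and −4.64 in recolonized against unmanipulated colon IEL and in colon and small intestinal IEL against the LP-labelled array; the last 2 comparisons then had 0 higher and 5 and 4 lower. Against the LP-labelled array, 6 of 7 receptors (all but Il2rb) turned sign with the list and 7 with CD3, in both comparisons. Among those past 2-fold as deposited, the values in colon IEL were −0.58 with the list and −2.75 with CD3 for Il21r, and −0.94 with CD3 for Il2rb. In small intestinal IEL they were −0.21 and −2.99 for Il21r, −1.29 and −4.07 for Il10ra, −1.86 and −4.64 for Il4ra, and −0.98 with CD3 for Il2rb.

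Medians of small lists also turned with the scaling: in colon against small intestinal IEL the JAK median was −0.29 as deposited and 0.23 under quantile normalization, and the T cell list −0.33 and 0.60. Levels near the median gene, those of Il15ra, Il18rap and Il18r1 on 2 arrays, limit what can be read from their differences.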
